A study of Mus musculus with 12 samples.

Results

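The 6 BCR::ABL1+ libraries of a 12-library series were compared with one another, gene by gene and lineage programme by lineage programme, with no contrast to the BCR::ABL1- libraries. Membership followed the sample titles alone, which mark 6 libraries as CML sampled 2 weeks after tetracycline (TET) was withdrawn. Each library is bulk RNA-seq of CD45.2+ Lin-Sca+Kit+ (LSK) cells, the bone marrow (BM) compartment in which haemopoietic stem cells and their first multipotent offspring are found. The cells came from SCLtTA/BCR-ABL double transgenic (DTG) mice, in which TET holds human BCR::ABL1 silent and its withdrawal switches the oncogene on under the SCL-driven transactivator, in haemopoietic stem and progenitor cells. DTG donor BM was a frozen pool from several mice of both sexes, recovered overnight in culture before it was injected into irradiated CD45.1 B6.SJL recipients, whose age the labels give as 8 to 12 weeks. All 6 recipients drank TET until the graft had taken and were then without it for 2 weeks. The labels give the sex of these samples as female, while the study describes recipients of both sexes. No label ties a library to a named recipient, so the spread between libraries can include technical spread, and all 6 share 1 donor pool.

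LSK cells sit above the branch points of blood formation. They combine stem cell regulators such as Hlf and Mecom with low levels of lineage genes, a state called lineage priming: granule enzymes for neutrophils, proteases for mast cells, recombination genes for lymphocytes, platelet genes for megakaryocytes. Chronic myeloid leukaemia starts in this compartment and drives it towards granulocytes, megakaryocytes and mast cells or basophils. The BCR::ABL1 kinase signals through STAT5 and the RAS-MAPK cascade, whose feedback inhibitors (Dusp and Spry genes) are used as a transcript readout of the pathway. A sort that depletes lineage antigens should leave few mature cells, so transcripts of B cells, mature neutrophils, fibroblasts or epithelium serve as markers of cells the gate was meant to exclude. In bulk RNA, more cells of one type and more RNA per cell cannot be told apart.

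The files held 16150817 to 25070105 counts on genes per library, and 22965 to 25726 genes had at least 1 count. Genes of the mitochondrial genome, ribosomal RNA included, took 2.26% to 2.97% of counts. No 2 libraries agreed within sampling noise (chi-square per degree of freedom from 18.2 to 78.2 over the 15 pairs), so each was counted once. Levels are given as counts per 1000000 (CPM) with TMM factors, and ranges as the difference between the highest and the lowest library in log2 CPM with a prior count of 2. A value of 0 allows up to 3 counts, which is 0.114 to 0.184 CPM with these factors depending on the library, and such limits cover counting error only.

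The gate genes were expressed in every library. Kit stood at 441, 512, 323, 406, 448 and 347 CPM in replicates 1 to 6, Ptprc (CD45) at 638, 510.4, 539, 506, 503 and 608 CPM and Ly6a (Sca-1) at 40.2, 72.7, 36.8, 40.5, 31.7 and 46.7 CPM. Ly6a was highest in replicate 2, 1.56 times the next library, and its whole range was 2.29-fold. Of 7 antigens used to deplete mature cells, 5 averaged under 1 CPM, and 1 of the other 2 had a range of at least 4-fold, also without replicates 2 and 4. The mouse genes of the same names are no measure of the transgene: Abl1 ranged from 98.1 to 134 CPM and Bcr from 78.6 to 111 CPM. The human transgene was not counted, so the level of BCR::ABL1 itself in each library is unknown here.

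Replicates 2 and 4 stood apart from the rest. The Y-linked gene Ddx3y had 0, 202, 0, 21, 0 and 0 counts in replicates 1 to 6, and Uty had 0, 142, 1, 10, 0 and 0. Eif2s3y and Kdm5d, also Y-linked, had 96 and 92 counts in replicate 2 and 9 and 7 in replicate 4. Xist, which female cells express from the inactive X chromosome, was high in all 6 at 2604, 2144, 3499.6, 2592, 2928 and 2994 CPM and lowest in replicate 2. The libraries labelled replicates 2 and 4 thus carried male transcripts against their sex label. The donor pool that all 6 share held cells of both sexes. Even so, Ddx3y and Uty together summed to 0, 14.5, 0.0612, 1.67, 0 and 0 CPM in replicates 1 to 6. These 2 transcripts were thus absent or nearly so outside replicates 2 and 4 despite the mixed pool, and the reason was not tested. Replicate 6 has a library number outside the run of the other 5. What these facts have to do with the differences below was not tested, and counts of genes with a range of at least 4-fold are therefore also given without replicate 2 and without replicates 2 and 4.

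Across 16342 genes with a mean of at least 1 CPM, the common biological coefficient of variation (BCV, edgeR) between libraries was 36.7%. It was 25.6% without replicate 2 and 21.9% without replicates 2 and 4. Of these genes, 1712 (10.5%) had a range of at least 4-fold over the 6 libraries. Over the 5 libraries other than replicate 2 the same genes gave 940 (5.75%), and without replicates 2 and 4 they gave 490 (3.00%). The spread of the middle gene was small. The median SD was 0.268 on the log2 scale for these genes and 0.193 for the 9765 genes with a mean of at least 10 CPM, for which the median coefficient of variation was 13.3% against 3.17% from counting alone.

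Taken in pairs, replicates 1 and 3 were the closest, with a BCV of 17.9%. The pairs among replicates 1, 3, 5 and 6 lay between 17.9% and 27.0%, the pairs of replicate 4 with those 4 between 28.5% and 30.9%, and the pairs of replicate 2 with any other between 36.2% and 50.4%. Replicate 4 was the library nearest to replicate 2. Spearman correlations over genes ran from 0.932 (replicates 2 and 3) to 0.986 (replicates 1 and 3), and genes are not independent replicates.

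Principal component 1 held 59.9% of the variance of log2 CPM and set replicate 2 (score 108.7) and replicate 4 (35.9) apart from the other 4 (−39.9 to −33.2). The 10 genes at its positive end were Col3a1, Fbln2, Col1a1, Fn1, Igfbp3, Grem1, Onecut2, Col5a2, Tnc and 3110039I08Rik. The 10 at its negative end were Igkv14-126, Jchain, Igkc, Ighm, Ighv11-2, Igha, Prg2, Ngp, Dntt and Plbd1. On component 2 (13.3%) replicate 4 scored 49.4 and replicate 6 scored 17.0. Replicates 1, 2, 3 and 5 scored −21.7, −24.4, −4.07 and −16.3 in turn. The low end of component 2 held Mmp9, Ltf, Igha, Ngp, Fosb, Hbb-bt, Il2ra, Neb, Tmem158 and Gm14085. Component 3 (12.4%) was led by replicate 6 (48.5).

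**Figure D1:**
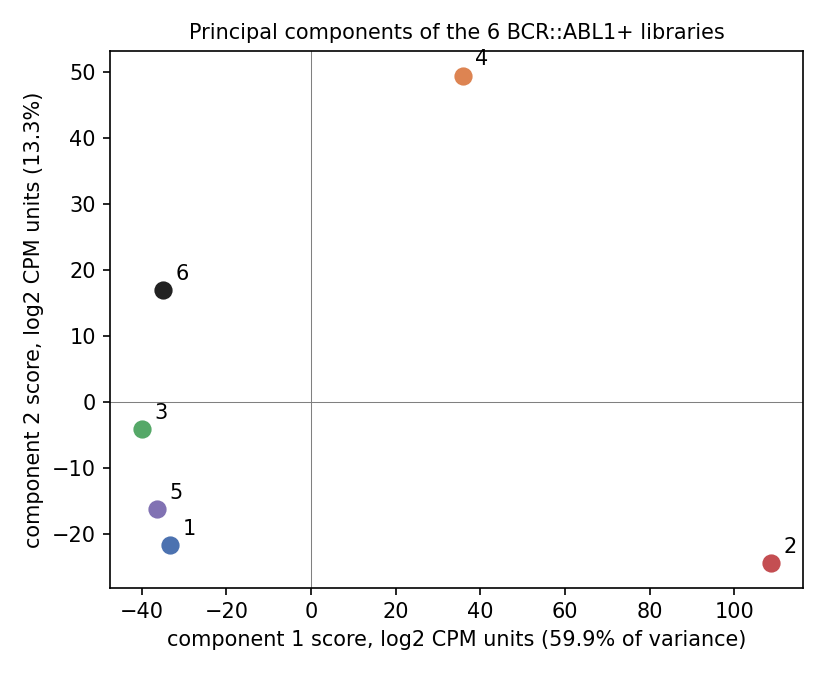
Scores of the 6 BCR::ABL1+ libraries on principal components 1 (horizontal) and 2 (vertical) of log2 CPM over 16342 genes, 1 point per library, labelled by replicate number. Replicate 2 lies far to the right at 108.7 and replicate 4 next at 35.9, while replicates 1, 3, 5 and 6 lie together on the left.

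The widest gap in the 6 ordered values of each of the 1712 genes gave a small number of patterns, a description made after the values were seen. In 409 genes the gap left replicate 2 alone below the others, in 396 it left replicate 2 alone above, and in 283 it left replicates 2 and 4 together above. Replicate 6 alone was above the gap in 57 genes and alone below it in 54. The genes low in replicate 2 alone were of another kind: only 25.1% of those with an annotated type were protein-coding, against 78.1% of all genes tested, 90.4% of those high in replicate 2 alone and 97.9% of those high in replicates 2 and 4. Replicate 2 was the lowest library for 28.5% of genes and the highest for 23.0%, and it had counts on the fewest genes. By the Dixon gap criterion, 1186 genes (7.26%) had 1 library far from the other 5, 505 of them with replicate 2 low and 190 with replicate 2 high. That criterion marks about 1 in 20 groups by chance.

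**Figure D2:**
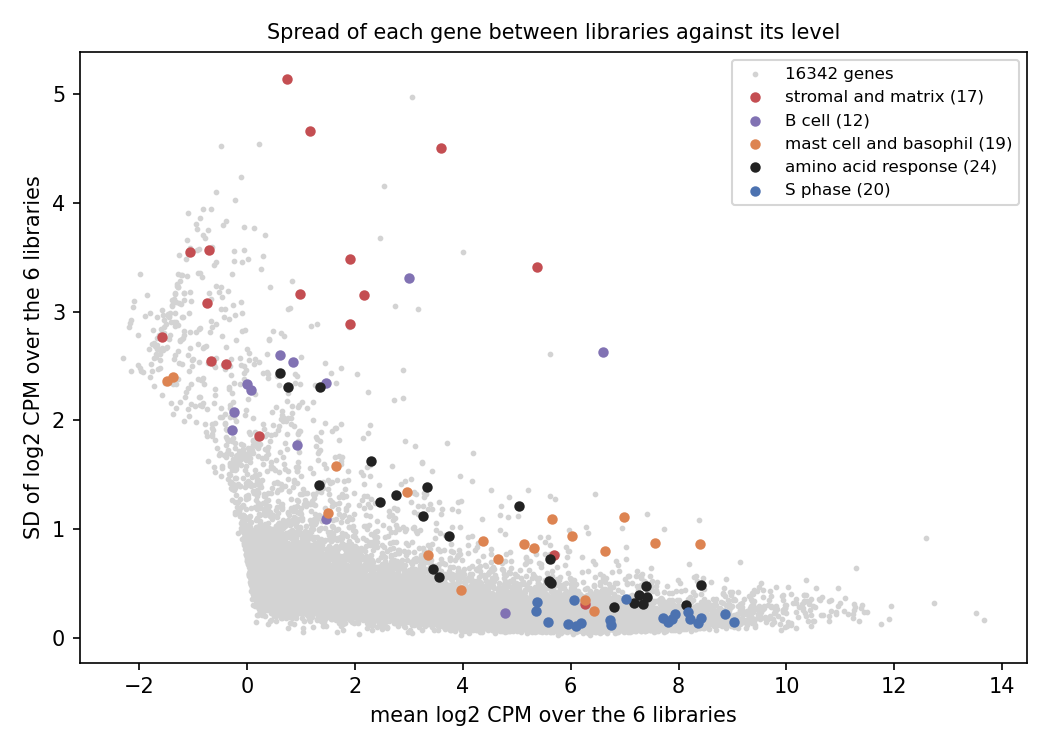
SD of log2 CPM over the 6 libraries (vertical) against mean log2 CPM (horizontal) for 16342 genes in grey, with the members of 5 gene lists coloured. Most matrix and B cell genes lie high above the cloud, and the S phase genes lie at its lower edge.

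Matrix genes differed most. Of 17 stromal and matrix genes with a mean of at least 1 CPM, 16 had a range of at least 4-fold, 15 without replicate 2 and 2 without replicates 2 and 4, and the median range was 7.12 against 0.71 over all genes tested. Replicate 2 was highest for 15 of the 17, against 23.0% of all genes. Of all genes, 10.5% had a range of at least 4-fold, 5.75% without replicate 2 and 3.00% without replicates 2 and 4. Fn1 (fibronectin) stood at 1969 CPM in replicate 2 and 186 CPM in replicate 4, and at 1.46, 2.27, 1.365 and 1.52 CPM in replicates 1, 3, 5 and 6. Spp1 (osteopontin, a secreted bone matrix protein) stood at 2578 and 201 CPM in replicates 2 and 4 and at 14.6, 8.27, 8.61 and 8.84 CPM in the same other 4. Col1a1 and Col3a1, chains of fibrillar collagen, showed the same 2 libraries high. Col1a1 reached 217 CPM in replicate 2 and 88.8 CPM in replicate 4 and was no higher than 0.344 CPM elsewhere. Col3a1 reached 270.4 and 77.9 CPM and had 0 counts in replicates 1 and 5, so replicate 2 was at least 1542-fold higher than a library at 3 counts.

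The ratio of replicate 2 to replicate 4 was not the same for every matrix gene. It was 10.6 for Fn1 and 12.8 for Spp1 but 2.45 for Col1a1, 1.43 for the proteoglycan Dcn and 1.32 for the secreted chaperone Clu (423 and 321 CPM). Lum, another proteoglycan, was higher in replicate 4 (5.28 CPM) than in replicate 2 (2.77 CPM). Grem1, a BMP antagonist, was at 71.5 CPM in replicate 2, 1.56 CPM in replicate 4 and 0 in the rest. Timp1, a metalloprotease inhibitor, was at 72.7 and 3.66 CPM in replicates 2 and 4. Pdgfrb, often used as a stromal marker, did not follow the list, with 85.6, 109, 62.1, 66.6, 83.3 and 64.4 CPM in replicates 1 to 6.

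Some genes were high in replicate 2 with little in replicate 4, named here after their values were seen. Mmp13 (collagenase 3, which cuts fibrillar collagen) had 1, 1304, 0, 21, 0 and 0 counts in replicates 1 to 6, and Ace (angiotensin-converting enzyme) had 0, 1347, 4, 39, 0 and 0. Nes (nestin, an intermediate filament protein) had 0, 1221, 1, 41, 2 and 4. The growth factor Pdgfa stood at 0.585, 35.8, 0.673, 1.29, 0.341 and 0.295 CPM. A further set was raised in replicates 2, 4 and 6, such as the proteoglycan Sdc4 at 2.46, 62.4, 1.22, 19.9, 1.82 and 9.87 CPM and the actin-bundling gene Fscn1 at 1.05, 24.2, 0.735, 5.33, 0.948 and 5.11 CPM, in both of which replicate 2 was clearly the highest. Col4a1, a basement membrane collagen, was expressed in all 6 libraries at 39.7, 117, 34.5, 72.1, 56.7 and 27.9 CPM and kept replicates 2 and 4 on top.

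Epithelial and mesothelial genes, a list put together after these values were seen, were high in the same 2 libraries. All 9 members with a mean of at least 1 CPM had a range of at least 4-fold. The count was 8 without replicate 2 and 1 without replicates 2 and 4. The shares of all genes were 10.5%, 5.75% and 3.00% in turn. The keratin Krt19 had 0, 597, 0, 215, 0 and 0 counts in replicates 1 to 6, and Msln (mesothelin) had 0, 433, 0, 229, 0 and 0. Krt8 was at 57.1 and 15.5 CPM in replicates 2 and 4. Epcam was higher in replicate 4 (12.8 CPM) than in replicate 2 (9.08 CPM), and in the other libraries it lay between 0.409 and 1.03 CPM. Endothelial genes moved less: 2 of 10 had a range of at least 4-fold (1 without replicate 2 and 0 without replicates 2 and 4), Kdr (a VEGF receptor) and Cdh5 (VE-cadherin) at 0.526, 6.76, 0.184, 1.62, 0.227 and 0.196 CPM, and Pecam1 ranged 1.26-fold in all. The sum of the matrix list was 146, 5722, 111, 876, 155 and 107 CPM in replicates 1 to 6.

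**Figure D3:**
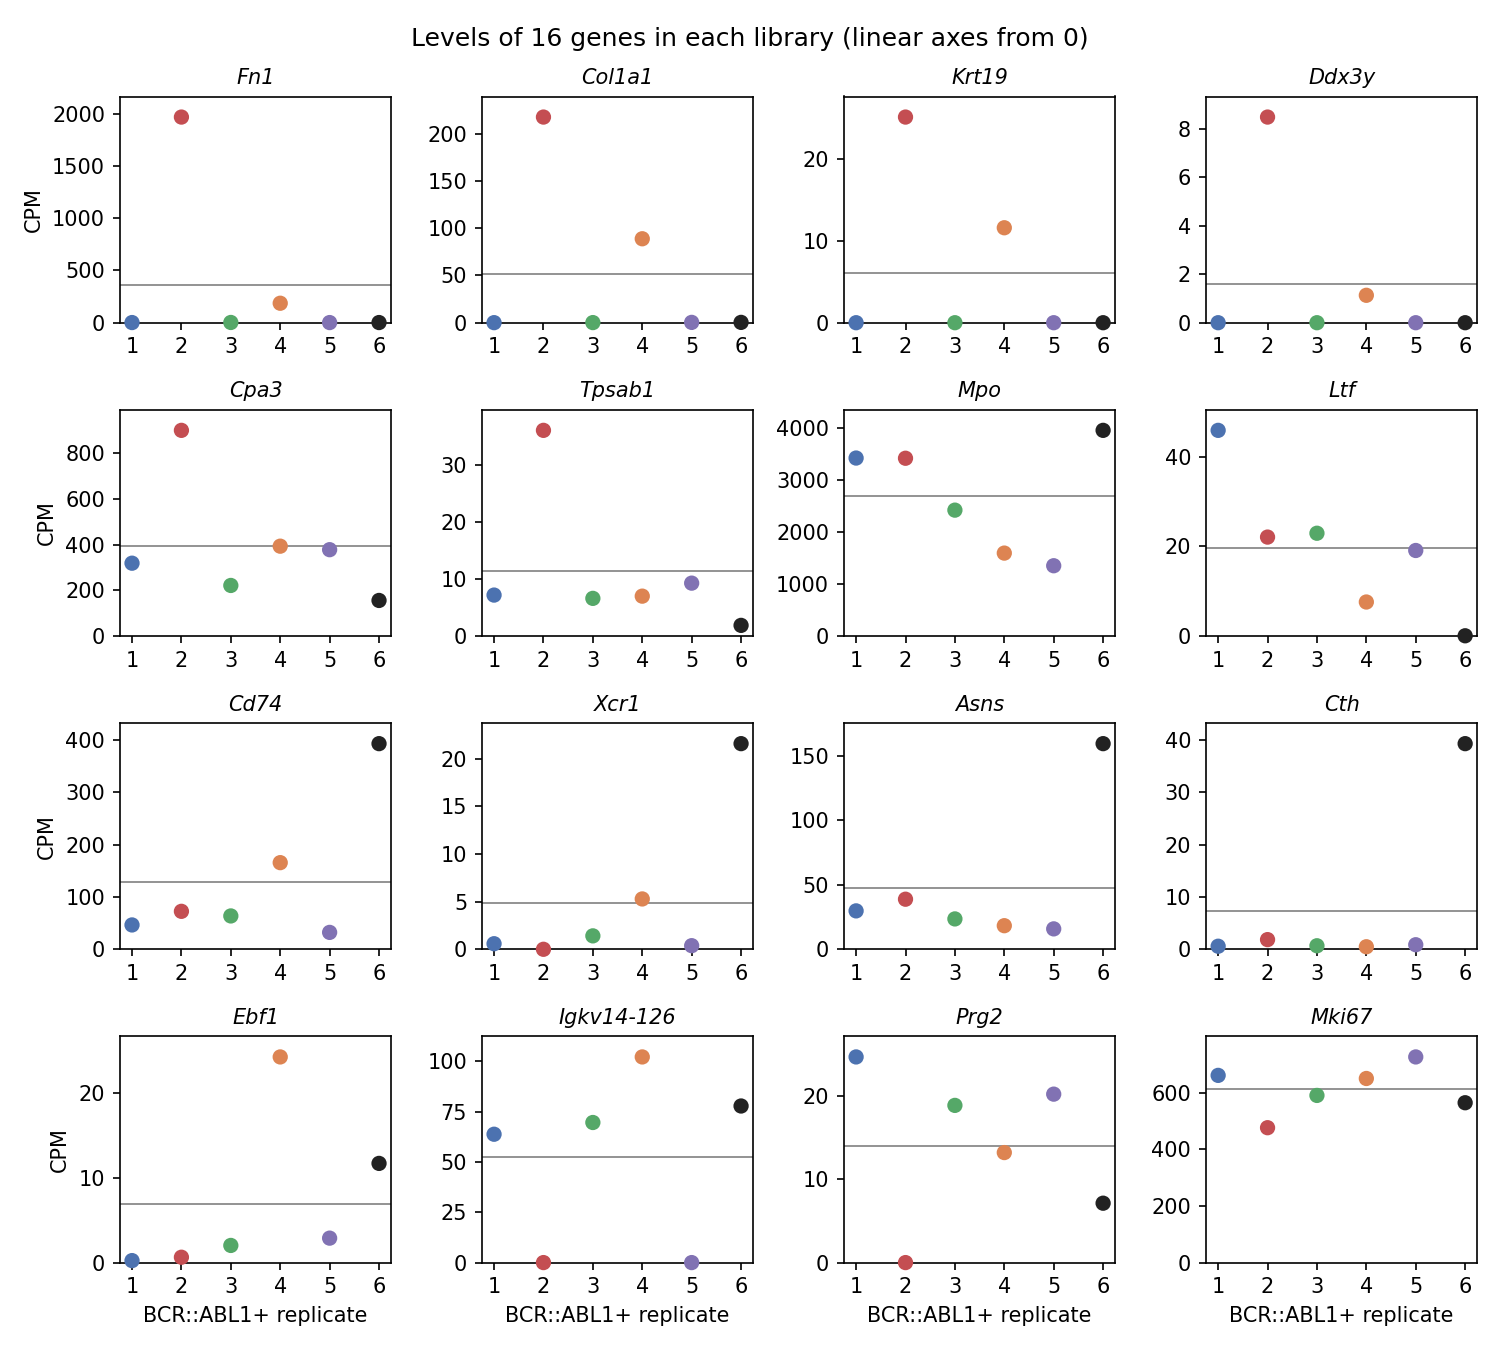
CPM of 16 genes in each of the 6 BCR::ABL1+ libraries on linear axes that start at 0, 1 point per library and a grey line at the mean of the 6. Fn1, Col1a1, Krt19 and Ddx3y are high in replicates 2 and 4 only, Cd74, Xcr1, Asns and Cth peak in replicate 6, Igkv14-126 is at 0 in replicates 2 and 5, and Mki67 is even.

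Mast cell and basophil genes were higher in replicate 2. Of 19 members, 16 had a range of at least 4-fold, against 10.5% of all genes. Replicate 2 was highest for 16, against 23.0% of all genes. Replicate 6 was lowest for 14, against 17.3% of all genes. Without replicate 2, 5 of the 19 had a range of at least 4-fold, and without replicates 2 and 4, 3 did. Cpa3, the carboxypeptidase of mast cell granules, stood at 318, 899, 221, 393, 377 and 155 CPM in replicates 1 to 6. Tpsab1 (tryptase) stood at 7.19, 36.1, 6.61, 7.003, 9.29 and 1.87 CPM, and Fcer1a, the IgE-binding chain of the high-affinity receptor, at 49.1, 178, 44.1, 45.5, 56.3 and 16.4 CPM. Each of the 3 was 2.29 to 3.89 times higher in replicate 2 than in the next library, and replicate 6 was the lowest. Hdc, which makes histamine, had a range of 6.34-fold, and Il1rl1, the IL-33 receptor, of 5.11-fold. The basophil proteases behaved otherwise. Mcpt8 ranged only 1.90-fold, and Prss34 was highest in replicates 3 (9.98 CPM) and 1 (9.53 CPM) and lowest in replicate 6 (0.442 CPM). Tpsb2, Cma1 and the other Mcpt genes have close copies, and reads shared between copies make their counts uncertain.

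Eosinophil granule genes were lowest in replicate 2 or 6. Prg2 (major basic protein) had 422, 0, 308, 245, 533 and 145 counts in replicates 1 to 6, and Epx (eosinophil peroxidase) had 64, 0, 86, 18, 205 and 72. For Prg2 the highest library was at least 196-fold above a library at 3 counts. Siglecf and Il5ra, surface receptors of the eosinophil lineage, were present in replicate 2 at 19.7 and 4.29 CPM, and did not range 4-fold. The other 4 of 6 members did, namely Prg2, Epx, Prg3 (a homologue of Prg2, lowest in replicate 6) and Ear2 (a ribonuclease, with 0 counts in replicate 2). The count was 3 without replicate 2 and 2 without replicates 2 and 4. The shares of all genes were 10.5%, 5.75% and 3.00% in turn.

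Signalling readouts were also highest in replicate 2. MAPK feedback genes were highest there for 10 of 12 members, against 23.0% of all genes. Of the 12, 4 (Dusp4, Spry4, Etv4 and Phlda1) had a range of at least 4-fold, against 10.5% of all genes. The count was 1 without replicate 2 and 0 without replicates 2 and 4. Dusp4, a nuclear MAPK phosphatase, stood at 3.98, 37.5, 6.92, 9.16, 8.64 and 4.32 CPM in replicates 1 to 6. Dusp6, the cytoplasmic ERK phosphatase, stood at 44.7, 90.4, 44.0, 57.3, 57.5 and 47.6 CPM, and Spry2 at 15.8, 25.2, 12.9, 13.8, 13.8 and 12.7 CPM. All 3 separated replicate 2 from the other 5, by a factor of 4.09 for Dusp4, 1.57 for Dusp6 and 1.59 for Spry2 over the next library. Etv5, an ETS factor of the same list, was highest in replicate 5 (39.2 CPM).

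Immediate early genes were highest in replicate 2 for 13 of 15 members, against 23.0% of all genes. They were lowest in replicate 4 for 9, where 12.8% of all genes were lowest. Fosb, Egr1, Egr3 and Ier3 had a range of at least 4-fold, 4 of 15 against 10.5% of all genes. The count became 2 without replicate 2 and 0 without replicates 2 and 4. Egr1 was at 5.26, 28.8, 6.98, 7.16, 5.38 and 4.42 CPM, a 4.02-fold step from replicate 2 to the next library. Fosb went the other way, with the gap below: 3.77 CPM in replicate 4 against 22.7, 24.2, 19.2, 9.59 and 17.8 CPM in replicates 1, 2, 3, 5 and 6. Of the glycolysis and hypoxia genes, 9 of 13 were highest in replicate 2, against 23.0% of all genes. A range of at least 4-fold was found in 2 (15.4% against 10.5% of all genes), 1 without replicate 2 and 0 without replicates 2 and 4. These were Vegfa and Adm (adrenomedullin, 157 of its counts in replicate 2 and at most 12 in any other). Vegfa stood at 15.96, 110.4, 22.1, 20.8, 14.7 and 43.7 CPM and the glucose transporter Slc2a1 at 37.8, 96.6, 28.4, 27.0, 30.9 and 24.4 CPM, with replicate 2 above the rest in both, while Pfkl ranged 1.22-fold. Replicate 2 also held the most matrix transcripts, and their part in these values was not tested.

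STAT5 targets had no wide ranges. None of the 10 members had a range of at least 4-fold. Of all genes 10.5% had one, but only 177 of the 9765 with a mean of at least 10 CPM. The list averaged 4.68 log2 CPM, so a count of 0 does not mark its members as steady. Of the 10, 5 were highest in replicate 2, against 23.0% of all genes. Their median range was 1.02 against 0.71 over all genes, 1.43 for MAPK feedback and 1.64 for immediate early genes. The mean log2 CPM of the list was highest in replicate 2 (5.09, next 4.73), and its SD over libraries of 0.225 was 0.107 without replicate 2, while the sum of the list was highest in replicate 5 (733 CPM, next 725 CPM in replicate 2). Cish was at 9.88, 16.7, 12.7, 16.5, 13.8 and 19.5 CPM and Pim1, a survival kinase, at 242, 261, 229, 188, 278 and 228 CPM. Socs2 had the widest range of the list, 2.91-fold, and was lowest in replicates 1 and 3 (7.95 and 8.69 CPM).

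The granulocyte programme split in 2. Primary granule genes, made by early neutrophil precursors, were highest in replicate 6 for 8 of 12 members (18.6% of all genes were highest there) and lowest in replicate 5 or 4 for all 12, 7 and 5 respectively, where 13.6% and 12.8% of all genes were lowest in turn. Mpo, the most abundant of them, was at 3425, 3421, 2423, 1596, 1353 and 3958 CPM in replicates 1 to 6. Elane, neutrophil elastase, was at 622, 718, 745, 362, 278 and 992 CPM. In both, replicates 4 and 5 were the lowest 2 libraries, a split made after the values were seen. Only Fcnb of the 12 passed 4-fold, a range that 10.5% of all genes had. It also did so without replicate 2 but not without replicates 2 and 4. The sum of the list ran from 4675 to 11732 CPM.

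Mature neutrophil genes had another order. Here 11 of 14 members were highest in replicate 1, where 14.5% of all genes were highest. A range of at least 4-fold was found in 11 (10 without replicate 2 and 8 without replicates 2 and 4). Of all genes, 10.5%, 5.75% and 3.00% had one in turn. Ltf (lactoferrin, a secondary granule protein) had 786, 526, 375, 141, 504 and 1 counts in replicates 1 to 6, so replicate 6, the library with the most Mpo, had 1 count of Ltf. Ngp was at 58.2, 1.09, 32.9, 3.93, 16.5 and 0.982 CPM and fell to near 1 CPM in replicates 2 and 6. Retnlg was at 6.90, 1.85, 5.39, 0.916, 5.497 and 0 CPM, with 0 counts in replicate 6. Mmp9 (gelatinase B) was an exception with 11.9, 43.6, 5.45, 1.02, 5.42 and 0.0491 CPM and its highest value in replicate 2, as was Lcn2 (lipocalin, 78.5, 97.0, 45.6, 19.9, 31.4 and 62.5 CPM). Padi4, which acts on histones in neutrophils, ranged 1.19-fold and followed neither order.

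Monocyte and macrophage genes were more mixed. Of 15, 6 had a range of at least 4-fold, 3 without replicate 2 and 3 without replicates 2 and 4. Over all genes this held for 10.5%, 5.75% and 3.00% in turn. Replicate 5 was lowest for 8 of the 15, against 13.6% of all genes. F13a1 was at 503, 441, 246, 139, 91.9 and 135 CPM, highest in replicates 1 and 2. Ly6c2 was highest in replicate 6 at 316 CPM, against 148, 161, 137, 75.8 and 62.8 CPM in replicates 1 to 5. Lyz2 (lysozyme) ranged 1.92-fold.

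Antigen presentation genes set replicates 6 and 4 apart. Of 7 MHC class II genes, 6 were highest in replicate 6, against 18.6% of all genes. Replicate 5 was lowest for 6, against 13.6% of all genes. A range of at least 4-fold was found in 5, against 10.5% of all genes. Without replicates 2 and 4 it was again 5, against 3.00%. Cd74, the invariant chain, stood at 46.5, 72.5, 63.7, 165, 32.3 and 393 CPM in replicates 1 to 6. H2-Aa stood at 29.1, 34.1, 39.4, 101, 22.8 and 227 CPM and H2-Eb1 at 18.8, 22.8, 30.9, 71.5, 15.2 and 179 CPM. The order was replicate 6, then replicate 4, then the other 4 in each of the 3. Ciita, the coactivator of this gene set, was at 7.54, 10.9, 9.12, 20.9, 6.98 and 37.5 CPM and kept that order. The peptide-loading genes H2-DMa and H2-DMb1 ranged only 1.66- and 1.99-fold.

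Class II promoters carry a conserved Y box to which the factor NF-Y binds, and the promoters of the 2 members with a match are shown because these genes moved together. The sequences are RefSeq promoters of build GRCm38.p6, from 250 bases before to 50 bases after the annotated start, and the capitals mark CTGATTGG, searched on both strands. These letters contain the general CCAAT box on the other strand. H2-Aa lies on the minus strand at chr17:34287774-34288073 and H2-Eb1 on the plus strand at chr17:34305617-34305916.
H2-Aa: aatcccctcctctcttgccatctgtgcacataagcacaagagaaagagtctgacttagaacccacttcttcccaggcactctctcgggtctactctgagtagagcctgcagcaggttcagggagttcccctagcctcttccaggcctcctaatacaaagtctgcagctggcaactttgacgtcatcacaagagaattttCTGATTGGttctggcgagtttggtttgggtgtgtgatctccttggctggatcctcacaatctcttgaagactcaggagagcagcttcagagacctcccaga
H2-Eb1: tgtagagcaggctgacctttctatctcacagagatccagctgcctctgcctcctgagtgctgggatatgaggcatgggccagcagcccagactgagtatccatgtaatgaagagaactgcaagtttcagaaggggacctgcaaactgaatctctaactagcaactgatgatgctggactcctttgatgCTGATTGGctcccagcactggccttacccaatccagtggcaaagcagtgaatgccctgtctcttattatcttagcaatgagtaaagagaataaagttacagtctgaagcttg
The match began 51 bases before the start of H2-Aa and 62 bases before that of H2-Eb1. Of 4 class II list genes with a promoter matched by symbol, 2 held it (H2-DMa and H2-DMb1 did not, H2-Ab1 and Ciita had no entry, and Cd74 was not searched), against 4.10% of all 32851 promoters. A list gene was counted if any promoter entry of its symbol matched, while all promoters were counted by entry, so the shares are not strictly alike. Class II genes are known for this box, so their share was partly fixed in advance, and no conclusion is drawn from it. A match is a string of letters and not a measured binding site.

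Dendritic cell genes, also assembled after the values were seen, followed the class II order. Replicate 6 was highest for 11 of 12 members with a mean of at least 1 CPM, against 18.6% of all genes. A range of at least 4-fold was found in 10, 8 without replicate 2 and 8 without replicates 2 and 4. Of all genes, 10.5%, 5.75% and 3.00% had one in turn. Xcr1, the chemokine receptor of cross-presenting dendritic cells, had 10, 0, 23, 98, 10 and 439 counts in replicates 1 to 6. Clec9a, a receptor of the same cells, was at 0.702, 0.714, 1.47, 3.66, 0.872 and 13.4 CPM. Naaa was at 11.4, 7.82, 14.8, 36.7, 7.20 and 94.1 CPM and Plbd1 at 8.65, 2.98, 13.7, 28.8, 4.97 and 94.2 CPM, all with replicate 6 first and replicate 4 second. Irf8, a transcription factor of this lineage and of monocytes that also stands on the monocyte list, was at 75.7, 23.7, 46.7, 69.5, 37.9 and 103 CPM, highest in replicate 6 and lowest in replicate 2. Siglech, a marker of plasmacytoid dendritic cells, averaged under 1 CPM, whereas Cox6a2 was at 36.0 CPM in replicate 6 and at most 2.65 CPM elsewhere.

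Replicate 6 was also marked by genes of the amino acid response, through which the factor ATF4 raises amino acid synthesis and transport when amino acids run short or protein folding is disturbed. This list of 24 was compiled after the first genes had been seen to be high. Replicate 6 was highest for 23 of the 24, against 18.6% of all genes. A range of at least 4-fold was found in 11, with or without replicates 2 and 4. Of all genes 10.5% had one, and 3.00% without those libraries. Asns (asparagine synthetase) stood at 29.8, 38.9, 23.6, 18.3, 15.8 and 159.6 CPM in replicates 1 to 6. Cth, which makes cysteine, stood at 0.585, 1.85, 0.673, 0.485, 0.872 and 39.3 CPM, 21.3 times the next library in replicate 6. Trib3, a pseudokinase induced by ATF4, stood at 2.57, 5.84, 3.49, 3.12, 1.71 and 42.5 CPM. Replicate 6 was the highest library for each of these. Slc7a11, the cystine transporter, was at 50.5 CPM in replicate 6 and next at 18.4 CPM in replicate 2, and Stc2 was high in both (25.2 and 15.6 CPM) with 0.702, 0.918, 0.916 and 0.758 CPM in the other 4. Atf4 itself was 1.82-fold above the next library in replicate 6, at 318 CPM. Vldlr, a lipoprotein receptor, was the member not highest in replicate 6. The widest range was that of Aldh1l2, a mitochondrial folate enzyme, at 0.702, 4.24, 1.04, 0.108, 0.531 and 24.9 CPM.

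The C/EBP-ATF element is a site through which ATF4 can act on its target genes, and whether it did so here was not tested. Shown are 3 promoters with a match to TGATGNAA on either strand, because their genes had some of the widest ranges of the list. They are RefSeq GRCm38.p6 windows as above, with the match in capitals, and Trib3 and Chac1 match on the reverse strand of the printed sequence. Asns lies on the minus strand at chr6:7693160-7693459, Trib3 on the minus strand at chr2:152344011-152344310 and Chac1 on the plus strand at chr2:119350992-119351291.
Asns: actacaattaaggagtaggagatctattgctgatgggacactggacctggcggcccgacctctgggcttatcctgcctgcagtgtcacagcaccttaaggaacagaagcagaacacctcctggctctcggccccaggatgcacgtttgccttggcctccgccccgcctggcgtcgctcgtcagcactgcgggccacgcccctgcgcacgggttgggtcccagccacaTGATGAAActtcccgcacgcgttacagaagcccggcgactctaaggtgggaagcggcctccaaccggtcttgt
Trib3: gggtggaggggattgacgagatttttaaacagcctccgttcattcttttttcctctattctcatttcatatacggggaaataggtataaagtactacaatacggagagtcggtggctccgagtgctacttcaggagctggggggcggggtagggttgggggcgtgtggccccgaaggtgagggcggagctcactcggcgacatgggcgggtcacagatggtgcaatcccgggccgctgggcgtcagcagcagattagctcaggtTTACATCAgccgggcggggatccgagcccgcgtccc
Chac1: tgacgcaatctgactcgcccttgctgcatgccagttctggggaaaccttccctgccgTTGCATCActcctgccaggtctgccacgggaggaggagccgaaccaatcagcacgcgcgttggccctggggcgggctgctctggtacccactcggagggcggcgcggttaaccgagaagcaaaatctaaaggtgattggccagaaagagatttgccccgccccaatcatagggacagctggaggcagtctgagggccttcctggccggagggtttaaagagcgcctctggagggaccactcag
The match began 23 bases before the start of Asns and 193 bases before that of Chac1, and that of Trib3 lay past the annotated start. Of 20 list genes with a promoter matched by symbol, 7 held the letters (Asns, Chac1, Nupr1, Slc1a4, Slc7a11, Trib3 and Vldlr), against 3.97% of all promoters. As above, list genes were counted by symbol and all promoters by entry. The list was made of genes of the ATF4 response, so its share was partly fixed by that choice. No conclusion is drawn from it. Cth had no entry, and here too a match is letters and not a measured binding site.

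**Figure D4:**
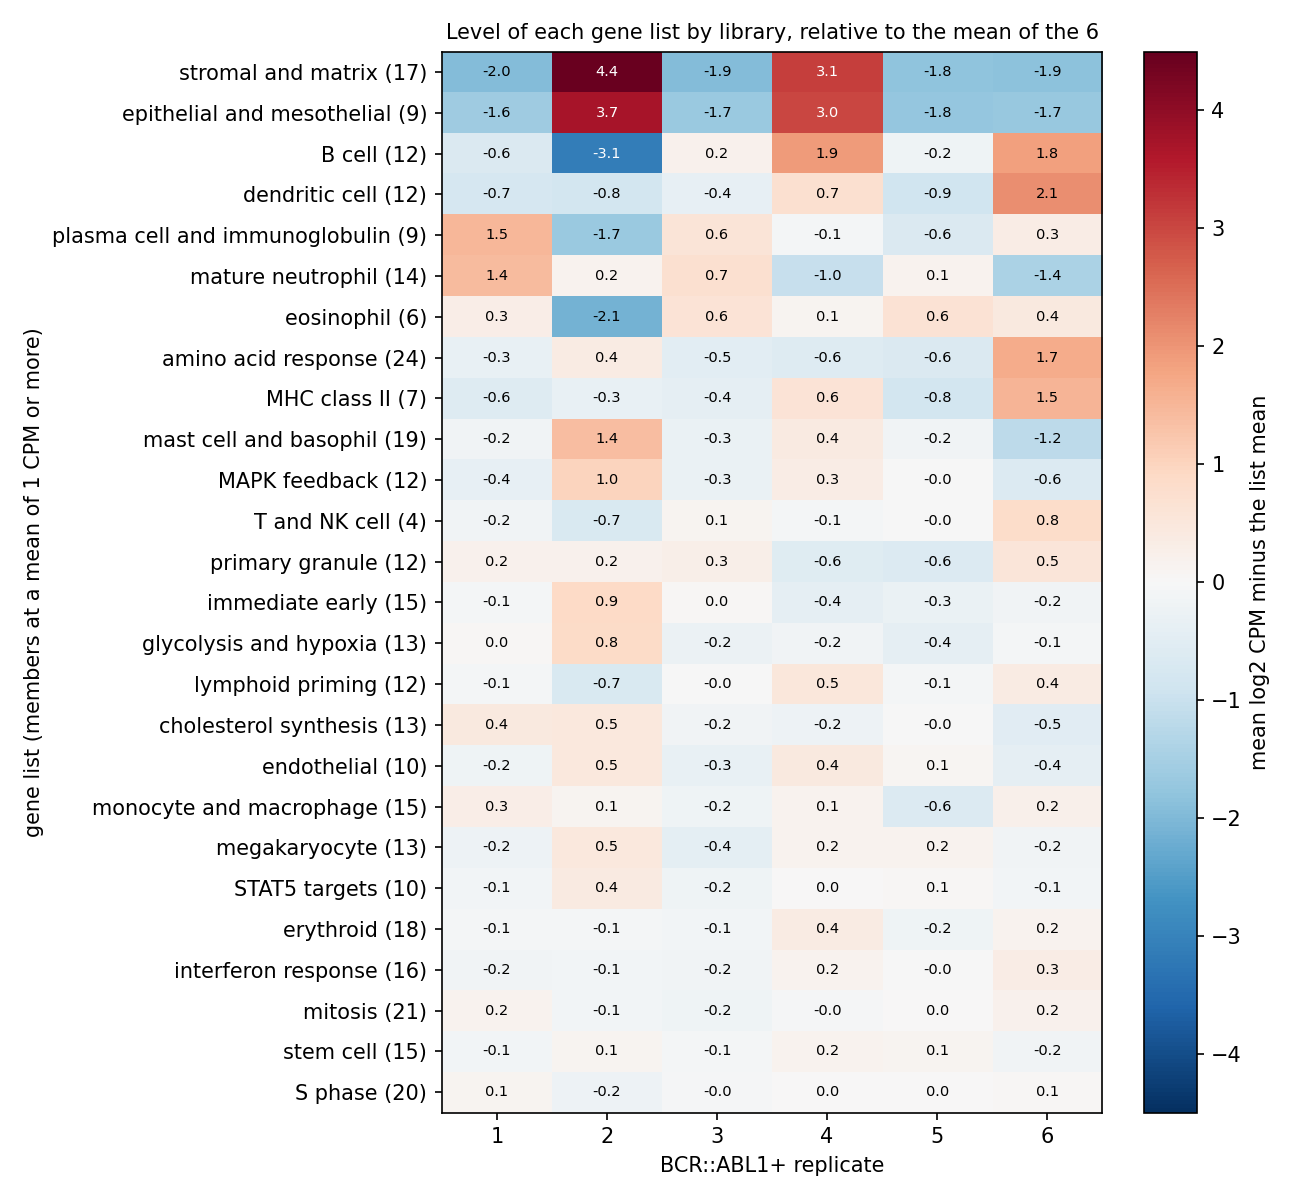
Mean log2 CPM of 26 gene lists in each library, minus the mean of the 6 libraries, with lists ordered by their spread and the number of members in parentheses. Red marks libraries above the mean, blue those below: matrix genes are high in replicates 2 and 4, amino acid response and dendritic cell genes in replicate 6, and the stem cell and S phase rows are close to 0.

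B cell genes came next to matrix genes in median range among the 22 lists written first. Of 12 members, 11 had a range of at least 4-fold, also without replicates 2 and 4, and the median range was 6.08. Of all genes 10.5% had such a range, and 3.00% without those libraries. Replicate 4 was highest for 8 of 12, against 11.0% of all genes, and replicate 2 was lowest for 9, against 28.5%. Ebf1, a founding transcription factor of the lineage, stood at 0.234, 0.630, 2.02, 24.2, 2.88 and 11.7 CPM in replicates 1 to 6. Pax5, which fixes B cell identity, stood at 0.526, 0, 2.08, 11.04, 2.99 and 7.71 CPM, and Igll1, part of the surrogate light chain of pre-B cells, at 0.468, 0, 0.918, 16.6, 2.31 and 5.45 CPM. In each of these replicate 4 came first and replicate 6 second. Rag1, of the recombinase that assembles antigen receptor genes, had 5, 0, 15, 310, 54 and 194 counts and the same 2 libraries on top.

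The order of the constant chains was different. Ighm stood at 302, 2.98, 296, 207, 51.4 and 283 CPM and Igkc at 129.7, 1.68, 178, 122, 19.98 and 140.2 CPM in replicates 1 to 6, and Jchain, which links secreted IgM and IgA, had 466, 0, 712, 193, 154 and 743 counts. Replicates 1 and 3, low for Ebf1, were thus among the highest for Ighm, and replicate 2 was near or at 0. Class-switched chains differed from library to library: Igha had 1262, 36, 873, 38, 562 and 0 counts, Ighg1 2, 0, 0, 0, 0 and 466 and Ighg2c 238, 0, 0, 0, 0 and 0. Ighg1 was present almost only in replicate 6 and Ighg2c only in replicate 1.

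Variable segments showed the narrowest usage. Igkv14-126 had 1091, 0, 1137, 1897, 0 and 1584 counts in replicates 1 to 6, and Ighv11-2 had 716, 0, 535, 625, 3 and 845. The 2 segments, known as the light and heavy chain of a B-1 cell antibody against phosphatidylcholine, were high in the same 4 libraries and at 0 or 3 counts or fewer in replicates 2 and 5. Together they held 48.6%, 40.3%, 89.5% and 72.6% of all variable segment counts in replicates 1, 3, 4 and 6. Several other segments were found in 1 library only. Igkv6-32 had 465 counts in replicate 3 and Igkv12-89 had 321 in replicate 1, both with 0 in the other 5, and Igkv6-23, Ighv1-55 and Ighv9-3 were likewise confined to replicates 3, 1 and 6. Ighv7-1 had 327 counts in replicate 3 and 214 in replicate 5. The variable segments summed to 217, 6.81, 254, 152, 43.2 and 164 CPM in replicates 1 to 6. Variable segments share sequence, so single segment counts are uncertain. Plasma cell genes as a list (assembled after the values were seen) had 7 of 9 members with a range of at least 4-fold. The count was 7 without replicate 2 and 6 without replicates 2 and 4. The shares of all genes were 10.5%, 5.75% and 3.00% in turn. Sdc1, however, peaked in replicate 2 (109.6 CPM), with the matrix genes, and Xbp1 ranged 2.02-fold.

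**Figure D5:**
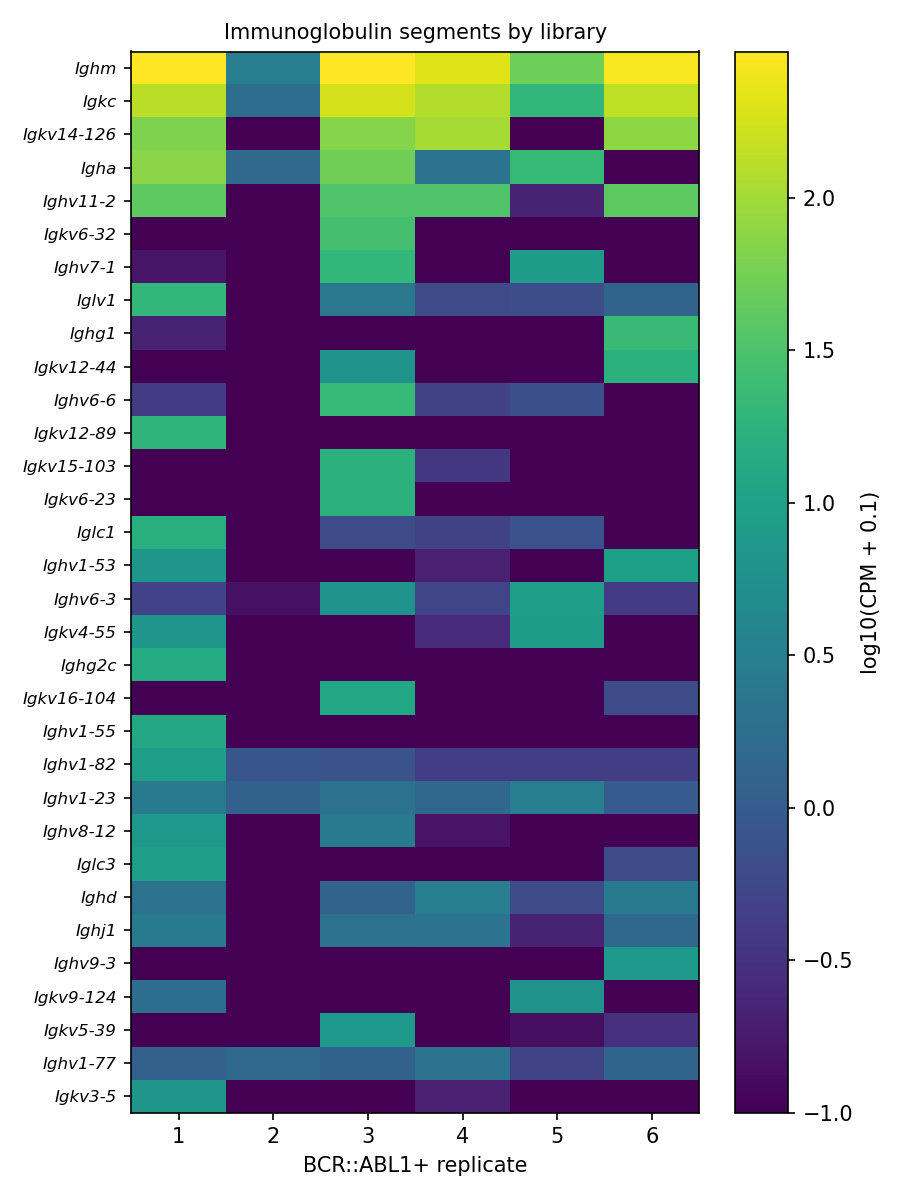
Immunoglobulin constant, joining and variable segments with a mean of at least 1 CPM (rows, ordered by mean) in each BCR::ABL1+ library (columns), coloured by log10(CPM + 0.1). Igkv14-126 and Ighv11-2 are bright in replicates 1, 3, 4 and 6, many other variable segments are bright in only 1 or 2 libraries, and the column of replicate 2 is nearly dark.

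Among lymphoid priming genes, Rag1, Rag2 and Dntt (3 of 12) had a range of at least 4-fold. The count was 2 without replicate 2 and 2 without replicates 2 and 4. Of all genes, 10.5%, 5.75% and 3.00% had such a range in turn. Dntt, the template-free DNA polymerase of early lymphoid cells, stood at 156, 21.2, 93.7, 111, 62.3 and 105 CPM, lowest in replicate 2. Flt3, the receptor of lymphoid-primed progenitors, ranged 1.94-fold, from 191 CPM in replicate 6 to 371 CPM in replicate 1, and Ikzf1 ranged 1.23-fold. T and NK cell genes were scarce: 4 of 13 averaged at least 1 CPM, and the most abundant, Lck, ranged from 8.99 to 16.5 CPM.

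Erythroid and megakaryocyte genes showed isolated differences. Of 18 erythroid genes, 6 had a range of at least 4-fold (Hbb-bt, Hbb-bs, Ermap, Rhag, Rhd and Ache). The count was 4 without replicate 2 and 4 without replicates 2 and 4. The shares of all genes were 10.5%, 5.75% and 3.00% in turn. Hbb-bt (adult beta globin) stood at 15.7, 43.4, 19.3, 7.33, 6.82 and 3.88 CPM and Hbb-bs, its near copy, had 4, 130, 66, 242, 12 and 0 counts, so the 2 copies did not share an order, and their reads may be split between them. Gata1, the erythroid and megakaryocyte factor, was at 5.03, 3.53, 3.24, 7.003, 6.90 and 5.65 CPM, and Nfe2 ranged 1.21-fold. Of 13 megakaryocyte genes, 7 were highest in replicate 2, where 23.0% of all genes were highest. A range of at least 4-fold was found in 2 (Gp9 and F2r), 15.4% against 10.5% of all genes, and in neither without replicate 2. F2r, the thrombin receptor, was at 71.0, 203, 47.7, 87.4, 94.7 and 68.3 CPM, and Itga2b (CD41) at 122, 224, 81.3, 94.3, 115 and 67.4 CPM, both highest in replicate 2. Vwf ran from 4.15 CPM in replicate 1 to 15.8 CPM in replicate 4, and Pf4 from 2.81 to 7.60 CPM in the same libraries.

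Stem cell and cell cycle genes had no wide ranges. None of 15 stem cell, 20 S phase or 21 mitosis genes had a range of at least 4-fold. Of all genes 10.5% had one, but only 177 of the 9765 with a mean of at least 10 CPM. The 3 lists averaged 4.92, 7.18 and 6.93 log2 CPM in turn, so a count of 0 does not mark them as steady. Hlf, a stem cell factor, stood at 123, 102, 99.9, 126, 146 and 79.5 CPM and Mecom at 52.2, 52.2, 52.3, 64.5, 69.3 and 43.4 CPM, both highest in replicate 5 and lowest in replicate 6. Procr, the marker EPCR, was highest in replicate 4 at 11.8 CPM against 5.73, 7.65, 6.18, 6.56 and 7.02 CPM in replicates 1, 2, 3, 5 and 6, and Slamf1 (CD150) was at 4.15, 10.3, 5.63, 10.2, 7.47 and 4.27 CPM. Cd34 and Cd48 ranged 1.37- and 1.18-fold. Mki67, present in cycling cells, stood at 661, 476, 589.9, 649.7, 726 and 564 CPM. S phase genes were lowest in replicate 2 for 12 of 20, against 28.5% of all genes. Mitosis genes were highest in replicate 6 for 10 of 21, against 18.6% of all genes. They were lowest in replicate 3 for 10, where 18.3% of all genes were lowest. The median range was 0.45 for S phase genes, 0.55 for mitosis genes and 0.85 for stem cell genes, against 0.71 over all genes.

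Interferon response genes had 2 of 16 members with a range of at least 4-fold (Mx2 and Ifi44), 12.5% against 10.5% of all genes. The count was 2 without replicate 2 and 1 without replicates 2 and 4. Of the 16, 7 were highest in replicate 6, against 18.6% of all genes. Cholesterol synthesis genes were highest in replicate 1 or 2 for 12 of 13 members, against 14.5% and 23.0% of all genes in turn. Sqle, a rate-limiting enzyme of sterol synthesis, stood at 55.3, 50.4, 31.6, 36.0, 45.0 and 25.2 CPM and was lowest in replicate 6.

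Members moved together in some lists and not in others. The mean Pearson r over pairs of members was 0.895 for matrix, 0.769 for cholesterol synthesis, 0.759 for MAPK feedback, 0.740 for MHC class II, 0.731 for B cell and 0.719 for primary granule genes, against 0.00542 over all pairs of genes tested. It was 0.0720 for erythroid, 0.0600 for lymphoid priming, 0.0929 for stem cell and −0.0688 for eosinophil genes. Without replicate 2 it fell to 0.0497 for immediate early genes (from 0.504) and to 0.229 for glycolysis and hypoxia genes (from 0.565). These are descriptions over 6 libraries that share depth and RNA composition.

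Covariation between programmes was tested on 36 pairs of 9 anchor genes (Hlf, Pf4, Gata1, Mpo, Irf8, Cpa3, Dntt, Mki67 and Fn1), and no pair passed. With 6 libraries, the smallest possible two-sided exact permutation p was taken as 0.00278, and 1 pair alone at that value would not pass after adjustment over 36 pairs. That no pair passed therefore cannot show that the programmes do not covary. The strongest pair was Irf8 with Dntt (Pearson r = 0.875, exact permutation p = 0.0139, Benjamini-Hochberg adjusted over the 36 pairs 0.5; Spearman rho = 0.829, exact p = 0.0583, adjusted 0.878). Without the 2 libraries farthest from the median of Irf8, r was 0.942, and without replicate 2, the lowest library for both genes, it was 0.714. Cpa3 with Fn1 gave r = 0.809 (exact permutation p = 0.0458, adjusted 0.606; rho = 0.486, exact p = 0.356, adjusted 0.878), and 0.446 without the 2 libraries farthest from the median of Cpa3 and 0.464 without replicate 2, so that relation rested on those libraries. These 2 pairs were the only ones with an unadjusted exact p under 0.05. Hlf and Mpo ran against each other with r = −0.779 (exact permutation p = 0.075, adjusted 0.606; rho = −0.771, exact p = 0.103, adjusted 0.878), and r was −0.391 without the 2 libraries farthest from the median of Hlf and −0.774 without replicate 2.

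Genes among the 3 most like each anchor over the 6 libraries, among those with a mean of at least 10 CPM, were Igfbp3, Hspg2 and 3110039I08Rik for Fn1 (r from 0.995 to 0.998) and Atg9a, Sulf2 and Spindoc for Cpa3 (0.993 to 0.996). For Mpo they were Vsir, Dbt and Gtf2b (0.992 to 0.9995), for Irf8 Fam111a and Aurka (0.989 and 0.986), for Dntt Naa40, Sec16a and Coa7 (0.989 to 0.998), and for Hlf Spg20 and Dcaf6 (0.997 and 0.994). For Gata1 they were Dcp1a, Gltp and Lrrc8c (0.971 to 0.990), for Mki67 Mre11a, Nsd2 and Zfp521 (0.985 to 0.987), and for Pf4 Wdr5b, Cpq and Rint1 (0.942 to 0.949). With 6 libraries and 9765 genes such values arise readily.

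The abundance order was shared. The 20 genes with the most counts took 7.66% to 9.67% of each library, and 17 to 19 of a library's own top 20 were in the top 20 by mean. By CPM, mt-Co1 and Eef1a1 (translation elongation factor) held the top 2 places by mean and were within the top 3 in each library. Malat1 ranked 4 to 9, and Actb 6 to 24. Mpo ranked 12 by mean and moved more than its neighbours, from 6 in replicate 6 to 36 in replicate 5. The gene ENSMUSG00000119584, which has no symbol in the reference used here, went from 2398 CPM in replicate 1 to 15248 CPM in replicate 3. The mitochondrial ribosomal RNA mt-Rnr2 had the same extremes at 95.5, 633, 793, 315, 256 and 341 CPM in replicates 1 to 6.

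Levels of different genes were compared per kb of exon. By mean CPM per kb, mt-Co1, Eef1a1, mt-Nd1 and mt-Cytb led, and ribosomal protein genes (Rplp1, Rps3a1, Rpl36, Rpl32 and others) held most of the next places. Ctsg (cathepsin G, a primary granule protease) ranked 13 per kb by mean and Mpo 39, so granule transcripts stood among those of ribosomal proteins in cells sorted as primitive. Ctsg moved per kb from rank 8 to rank 32 between libraries. Matrix genes changed place most: by CPM, Fn1 ranked 21 in replicate 2, 953 in replicate 4 and no higher than 13631 in the rest, and Spp1 ranked 13 in replicate 2.

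The 10 genes with the smallest SD among those with a mean of at least 10 CPM were nearly level. Uap1, an enzyme of amino sugar metabolism, stood at 53.8, 52.5, 53.8, 54.2, 55.2 and 54.9 CPM in replicates 1 to 6, and Tfcp2, a transcription factor, at 15.8, 15.4, 15.1, 15.2, 15.7 and 15.7 CPM. The other 8 were Paip1, Susd6, Azi2, Gm21926, Pars2, Nkapd1, Rint1 and Stk38, and all 10 ranged by at most 0.11 on the log2 scale. Replicate 2, which stood apart for so many genes, did not stand apart for these, which were chosen for their small spread.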

How the data were processed

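Total RNA of the sorted cells was converted to libraries with the Kapa RNA HyperPrep kit. The submitters' processing notes list FastQC 0.11.9, fastp 0.23.2, STAR 2.7.10a, featureCounts 2.0.1 and DESeq2 1.36.0 with the mouse build GRCm39, while the study's methods name another trimmer and aligner and a human build. The annotation and strand setting are not given in the sources used here. The authors deposited raw gene counts, 1 file per library, and these counts were used as deposited. Of 56748 gene IDs, 52073 were given a symbol from GENCODE M21, an annotation of the earlier build GRCm38, which also gave exon lengths. Promoters came from RefSeq tables of GRCm38.p6.

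Only the 6 libraries titled CML 2wk were used. CPM used TMM factors (edgeR 4.0.16, R 4.3.3), and log2 CPM used a prior count of 2. Genes with a mean of at least 1 CPM were described by range, SD and BCV (edgeR, intercept-only design). The Dixon criterion for 6 values was a ratio above 0.625. Anchor genes were compared by exact permutation of all 720 pairings (numpy 2.4.6) with Benjamini-Hochberg adjustment, and no other test was made. The programs were tested on simulated data with known dispersion. Alternatives were other scaling factors, filters, prior counts, transformations (DESeq2 1.42.0), correlations and leaving out libraries.

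The genes, lists and comparisons were chosen with earlier results of these data known. Genes named were the 3 members of each list with the largest range and those meeting the Dixon criterion, sort and sex-linked genes, the anchors and the 3 genes most like each, the 20 genes with the largest and 10 with the smallest SD, the ends of components 1 and 2, and the 20 most abundant. Other genes were added as examples after their values were seen, as were 4 lists (amino acid response, dendritic cell, epithelial and mesothelial, plasma cell). Of 335 list genes, 2 had no match. Variable segments, globins, mast cell proteases and other close copies share reads. A few genes that these rules name are not reported here.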

Additional observations from a re-analysis of the deposited data

Results flagged for a closer look

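Among 417 library-wise values examined (gene and list levels and library totals), 33 had 1 library whose gap to the nearest other was larger than Dixon's limit for 6 values. Chance flags about 1 in 20. Replicate 2 was the library concerned in 18 of them, replicate 6 in 9, replicate 1 in 3, replicate 3 in 2, replicate 5 in 1 and replicate 4 in 0.

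Replicate 2 was lowest for the number of genes with counts (22965, next 24870) and for the mean log2 CPM of the eosinophil list (−0.67, next 1.60). It was highest for the immediate early list (4.75, next 3.88) and the glycolysis and hypoxia list (6.66, next 5.86). Its high genes were Dusp4 (37.5 CPM, next 9.16), Dusp5 (28.6, next 13.2), Dusp6 (90.4, next 57.5) and Spry2 (25.2, next 15.8) of the MAPK feedback list, Egr1 (28.8, next 7.16), Ier3 (43.4, next 14.6) and Junb (114, next 56.8) of the immediate early list, the glucose transporter Slc2a1 (96.6, next 37.8) and the mast cell factor Mitf (28.1, next 14.8). Its low genes were Ache (0, next 1.58), Jchain (0, next 5.84), Prg2 (0, next 7.12), Cd48 (186, next 207) and Gins1, a replication gene (27.0, next 41.0).

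Replicate 6 was highest for Atf4 (318 CPM, next 174), Cth (39.3, next 1.85), Mthfd2 (134, next 43.2), Psat1 (642, next 354) and the transporter Slc7a1 (243, next 169) of the amino acid response list, and for Cox6a2 (36.0, next 2.65), H2-DMb1 (32.8, next 21.2) and Ighg1 (22.9, next 0.117). It was lowest for Ltf (0.0491, next 7.60). Replicate 1 was highest for Ighg2c (13.9 CPM, next 0) and lowest for Cd9 (36.8, next 48.6) and Ifi27l2a (1.87, next 2.94). Replicate 3 was lowest for Actb (2104, next 2876) and H2-DMa (37.0, next 56.0), and replicate 5 was highest for the mitosis gene Cenpf (182, next 145).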

How the results depend on the processing

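No paired analysis was possible because all 6 libraries belong to 1 group and no groups were compared. The BCV of 36.7% was 50.4% with every gene that had a count, 24.8% with the filterByExpr filter, 21.6% at a mean of at least 10 CPM and 17.2% as the median DESeq2 estimate, and it lay between 25.6% (without replicate 2) and 39.0% when 1 library was left out. The 1712 genes with a range of at least 4-fold became 8168 with every gene that had a count, 177 at a mean of at least 10 CPM, 166 after a variance stabilizing transformation and 732 (without replicate 2) to 1662 with 1 library left out, the mean being taken again over the 5 that remained. The 1186 genes with 1 library far from the others became 552 at a mean of at least 10 CPM. Component 1 held 77.3% of the variance of the 500 most variable genes, 34.2% with genes at unit variance, and 40.4% (without replicate 2) to 67.1% with 1 library left out. The mean within-list r of 0.407 was 0.343 by Spearman correlation and lay between 0.332 (without replicate 2) and 0.422 with 1 library left out. Leaving out replicates 2 and 4 together, chosen after the data were seen, gave a BCV of 21.9%, 364 genes, 46.3% and a mean r of 0.282. The 20 most abundant genes by mean kept 12 when only nuclear protein-coding genes were ranked. Of 220 alternative values of list spread, 177 moved by less than the SD of the values with each library left out and 43 moved more, and 9 of 22 lists were highest in replicate 2, or 7 with upper-quartile factors or summed CPM. In every alternative 0 anchor pairs passed, in a test that 1 pair alone could not pass with 6 libraries. Except where the filter or the number of libraries sets the count, the cause was not tested. Depth limits genes near 1 CPM, whose ranges rest on few counts.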
